A study of Mus musculus with 15 samples.

Results

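The genes of the T cell receptor complex and its nearest signalling proteins were followed in 15 RNA-Seq libraries of mouse pancreas, of which the study describes the 4 from KC and KMC mice as pancreatic cancer samples. The 10 genes were listed by name and not by a cut on a measured value, but with earlier results of these data known. They are the CD3 chains Cd3e, Cd3d and Cd3g, the coreceptors Cd4 and Cd8a, the kinases Lck and Zap70, the adaptors Lat and Lcp2, and the cytokine receptor chain Il2rb. They were 10 of 13655 genes that could be tested in all 3 comparisons, and all 10 passed the filter on low counts in each comparison.

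A T cell recognizes antigen through receptor chains that carry no signal themselves and are held in a complex with the CD3 proteins. The coreceptors CD4 and CD8 bind MHC molecules and bring the kinase LCK to the complex, LCK phosphorylates the CD3 tails, and ZAP-70 docks there and phosphorylates the adaptors LAT and SLP-76. HPK1, the kinase encoded by Map4k1, is best known in T cells as a brake on this pathway that phosphorylates SLP-76, the product of Lcp2. The healthy pancreas holds few T cells, and they are part of the infiltrate in pancreatitis and in pancreatic tumors.

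Cerulein-treated mice and tumor-prone mice were compared, each with their own controls. MC mice carried the kinase-dead HPK1-M46 transgene with Bac-cre, and the 3 MC libraries were compared with 3 libraries labelled B control, all at 2 months. HC mice carried the HPK1 transgene with Bac-cre, and 3 libraries labelled HPK1/B were compared with 2 wild-type libraries, all at 4 months. KC mice carried mutant Ras with Bac-cre (2 libraries, 15 months), and KMC mice carried M46 as well (2 libraries, 9 months). The series' design text names cerulein, a cholecystokinin analogue that induces pancreatitis, for the first 2 experiments and not for KC and KMC. All mice were C57BL/6. Bac-cre is a tamoxifen-inducible Cre driven by the acinar elastase promoter, so the transgenes were meant for acinar cells and not for T cells, and a stop cassette keeps them silent until Cre acts. RNA of each library was pooled from 3 mice, so p-values measure the spread between pools. In bulk tissue, fewer T cells and less RNA of these genes per cell cannot be told apart.

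Libraries held 29766575 to 38745907 counts (median 33658995). A list of 33 acinar genes took 37.5 to 56.0% of counts in the MC experiment, 5.77 to 9.05% in the HC experiment, 60.3 and 69.2% in KC, and 24.7 and 49.3% in KMC. Amy2a5, a pancreatic amylase, was low in the HC experiment, with a mean of 1.85 CPM for the libraries labelled HC (SD 0.768, n = 3) and of 2.31 CPM for their controls (SD 1.72, n = 2). Map4k1, the gene of the transgene product, had a mean of 7.54 CPM in MC (SD 0.763, n = 3) and of 3.43 CPM in its controls (SD 0.958, n = 3). Per 100 counts of the leukocyte gene Ptprc it was lower in MC, at 17.5 against 25.7 in controls, with overlap. The higher CPM in MC therefore does not settle the MC label. In the libraries labelled HC the mean was 6.77 CPM (SD 1.52, n = 3), below the 13.5 CPM of their controls (SD 2.75, n = 2), which goes against the label. Library HC 3 stood apart by a Y-linked transcript (Ddx3y at 47.9 CPM), and both KC libraries carried it while both KMC libraries had none, so sex, age and genotype cannot be told apart in KMC against KC.

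The promoters of the CD3 genes, Lck, Zap70 and Lcp2 are shown because these genes moved together below while their start regions differ in the motifs they hold. RefSeq (GRCm38.p6) gave windows for 8 of the 10 genes, 11 windows in all, and none for Cd4 or Il2rb. Each line gives the 250 bases before a start, 5′ to 3′ on the gene's strand, for Lck the more upstream of its 2 starts and for Zap70 the first of 3. Capitals mark matches on either strand to the letters searched for ETS factors, AGGAAG. They also mark those searched for RUNX factors, which were TGTGGT. The TCF factor letters were CTTTGA, and those for GATA factors were AGATAA. No match overlapped another.
Cd3g (chr9:44980432-44980681, minus strand): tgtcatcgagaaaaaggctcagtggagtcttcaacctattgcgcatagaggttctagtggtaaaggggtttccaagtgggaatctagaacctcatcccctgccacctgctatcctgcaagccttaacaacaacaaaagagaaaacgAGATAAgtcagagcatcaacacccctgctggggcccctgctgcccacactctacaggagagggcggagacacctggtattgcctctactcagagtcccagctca
Cd3d (chr9:44981536-44981785, plus strand): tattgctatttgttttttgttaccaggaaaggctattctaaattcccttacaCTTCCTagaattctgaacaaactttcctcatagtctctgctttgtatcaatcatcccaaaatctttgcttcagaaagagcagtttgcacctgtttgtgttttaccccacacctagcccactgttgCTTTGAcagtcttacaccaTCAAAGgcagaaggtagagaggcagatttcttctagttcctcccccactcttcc
Cd3e (chr9:45009612-45009861, minus strand): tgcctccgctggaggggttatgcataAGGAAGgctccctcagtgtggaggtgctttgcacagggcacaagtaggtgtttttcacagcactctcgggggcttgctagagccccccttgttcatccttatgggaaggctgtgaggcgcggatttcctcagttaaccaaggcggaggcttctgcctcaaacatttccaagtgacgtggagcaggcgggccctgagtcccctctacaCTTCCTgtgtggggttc
Lck (chr4:129573642-129573891, minus strand): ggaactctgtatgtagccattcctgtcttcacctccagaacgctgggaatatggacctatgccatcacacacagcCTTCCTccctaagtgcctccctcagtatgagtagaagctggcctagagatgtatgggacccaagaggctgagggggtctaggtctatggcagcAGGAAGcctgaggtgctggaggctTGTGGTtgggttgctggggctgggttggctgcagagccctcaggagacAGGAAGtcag
Zap70 (chr1:36761548-36761797, plus strand): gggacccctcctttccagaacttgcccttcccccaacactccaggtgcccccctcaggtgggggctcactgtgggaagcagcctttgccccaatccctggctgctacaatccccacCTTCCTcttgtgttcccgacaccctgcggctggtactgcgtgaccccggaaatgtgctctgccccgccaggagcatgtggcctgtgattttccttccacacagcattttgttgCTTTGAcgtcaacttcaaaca
Lcp2 (chr11:34046678-34046927, plus strand): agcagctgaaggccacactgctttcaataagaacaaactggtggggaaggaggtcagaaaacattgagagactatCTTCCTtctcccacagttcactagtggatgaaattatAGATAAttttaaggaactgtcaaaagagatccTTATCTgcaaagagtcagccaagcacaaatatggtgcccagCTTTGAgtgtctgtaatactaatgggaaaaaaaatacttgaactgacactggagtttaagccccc

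The ETS letters were found in the windows of 6 of the 8 genes, beside 29.5% of the 32851 mouse promoter windows of the same length. RUNX letters were found for 2 genes (Lck and Zap70, the latter in a window that is not printed) beside 14% of windows, TCF letters for 3 (Zap70, Cd3d and Lcp2) beside 13.8%, and GATA letters for 2 (Cd3g and Lcp2) beside 9.99%. Genes with several windows have more chances of a match. Cd3g and Cd3d are read in opposite directions from starts 1354 bases apart, and their windows shared no motif of the 4. A match is a description of letters and not evidence of binding.

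On GRCm38, Cd3g (ENSMUSG00000002033) spans positions 44969572 to 44980431, Cd3d (ENSMUSG00000032094) 44981786 to 44987339 and Cd3e (ENSMUSG00000032093) 44998740 to 45009627 of chromosome 9, a cluster of the 3 CD3 genes. Lcp2 (ENSMUSG00000002699) lies on chromosome 11 from 34046920 to 34092295, and Il2rb (ENSMUSG00000068227) on chromosome 15 from 78479256 to 78495271. Cd4 (ENSMUSG00000023274) lies at 124864692 to 124888221 and Cd8a (ENSMUSG00000053977) at 71373427 to 71379173 of chromosome 6. Lck (ENSMUSG00000000409) lies on chromosome 4 from 129548344 to 129573641, Zap70 (ENSMUSG00000026117) on chromosome 1 from 36761798 to 36782818, and Lat (ENSMUSG00000030742) on chromosome 7 from 126363824 to 126369570. Exons of Cd3e shared 135 bases (3.31% of its exon bases) with the antisense gene Gm48719, and those of Lcp2 shared 282 bases (6.32%) with 4930469K13Rik on the other strand. Whether reads were counted by strand is not given in the sources used here, so reads from those stretches may belong to either gene.

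MC against its controls asks what kinase-dead HPK1 in acinar cells does after cerulein. Each of the 10 genes was higher in every MC library than in every control library. Log2 fold changes ran from 1.14 for Lcp2 to 2.83 for Zap70, with a median of 1.97 beside -0.02 over all 13902 genes tested. By the edgeR quasi-likelihood F-test, with p-values adjusted after Benjamini and Hochberg, none of the 10 was called, nor was any other gene (0%). A call required an adjusted p no higher than 0.05 together with a 2-fold change. At an unadjusted p under 0.05 all 10 were higher, beside 9.2% of all genes, and groups did not overlap with MC higher for 10.9% of all genes. DESeq2 called 8 of the 10 (not Cd3e and Cd3d), beside 3.11% of all genes called higher.

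The CD3 chains were counted at low levels. Cd3e, which encodes the epsilon chain, had 0.231, 0.149 and 0.449 CPM in control libraries 1 to 3 and 0.879, 0.517 and 0.691 CPM in MC libraries 1 to 3. The lowest MC library was above the highest control by a small margin, and the log2 fold change was 1.37 (standard error 0.49, edgeR adjusted p = 0.277). Cd3d, the delta chain, had 0.132, 0.357 and 0.0449 CPM in controls and 0.710, 0.517 and 0.988 CPM in MC. Its log2 fold change was 1.94 (standard error 0.62, edgeR adjusted p = 0.245), and 1 control library rested on a single count. Cd3g, the gamma chain, had 0.231, 0.119 and 0.135 CPM in controls and 1.28, 0.682 and 1.01 CPM in MC. Here the groups were farthest apart of the CD3 genes, at a log2 fold change of 2.57 (standard error 0.45, edgeR adjusted p = 0.084).

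Both coreceptors were higher in MC. Cd4, which marks helper and regulatory T cells and is also made by some myeloid cells, had 0.529, 0.595 and 0.404 CPM in controls and 1.83, 1.32 and 2.05 CPM in MC. That is a log2 fold change of 1.74 (standard error 0.32, edgeR adjusted p = 0.0865). Cd8a, which marks cytotoxic T cells and some dendritic cells, had 0.0331, 0.208 and 0.180 CPM in controls and 0.541, 0.893 and 1.19 CPM in MC. Control library 1 held a single count of it, and the log2 fold change was 2.63 (standard error 0.60, edgeR adjusted p = 0.134). Cd8a per 100 counts of Cd4 averaged 51.8 in MC (SD 19.8, n = 3) and 28.6 in its controls (SD 19.9, n = 3), and the groups overlapped.

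The kinases followed the CD3 genes. Lck, the Src-family kinase that starts the cascade, had 1.19, 1.1 and 0.449 CPM in controls and 3.41, 2.33 and 2.86 CPM in MC. Its log2 fold change was 1.62 (standard error 0.37, edgeR adjusted p = 0.136). Zap70, the kinase that docks on phosphorylated CD3 tails, had 0.231, 0.0893 and 0.0449 CPM in controls and 1.22, 0.870 and 0.691 CPM in MC. This was the highest fold change of the 10, 2.83 on the log2 scale (standard error 0.56, edgeR adjusted p = 0.0945), over control counts of 1 to 7.

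Among the adaptors, Lat, the membrane scaffold on which the signal assembles, had 0.198, 0.387 and 0.449 CPM in controls and 1.96, 1.46 and 0.741 CPM in MC. Its log2 fold change of 2.00 (standard error 0.49, edgeR adjusted p = 0.155) came with a wide spread in MC. Lcp2, which encodes the HPK1 substrate SLP-76 and is also used by platelets, mast cells and other myeloid cells, had 6.84, 9.77 and 3.91 CPM in controls and 13.2, 14.8 and 17.6 CPM in MC. It was the best covered of the 10, with 87 to 714 counts a library, and had the smallest log2 fold change, 1.14 (standard error 0.31, edgeR adjusted p = 0.184). Il2rb, the chain shared by the IL-2 and IL-15 receptors on T and NK cells, had 0.859, 1.01 and 0.719 CPM in controls and 3.55, 3.20 and 4.89 CPM in MC. Its groups were tight and far apart, at a log2 fold change of 2.15 (standard error 0.27) and the lowest adjusted p of the 10 in edgeR, 0.0782.

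Some libraries weighed on the calls. Without MC control library 2, 5 of the 10 genes were called (Cd3d, Cd3g, Cd4, Lcp2 and Il2rb) among 718 genes in all, and without MC library 1 only Il2rb was, among 171. In the other 4 such fits none was called. Unscaled library sizes moved the all-gene median to 0.295 and that of the 10 genes to 2.23, on the log2 scale.

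**Figure D1:**
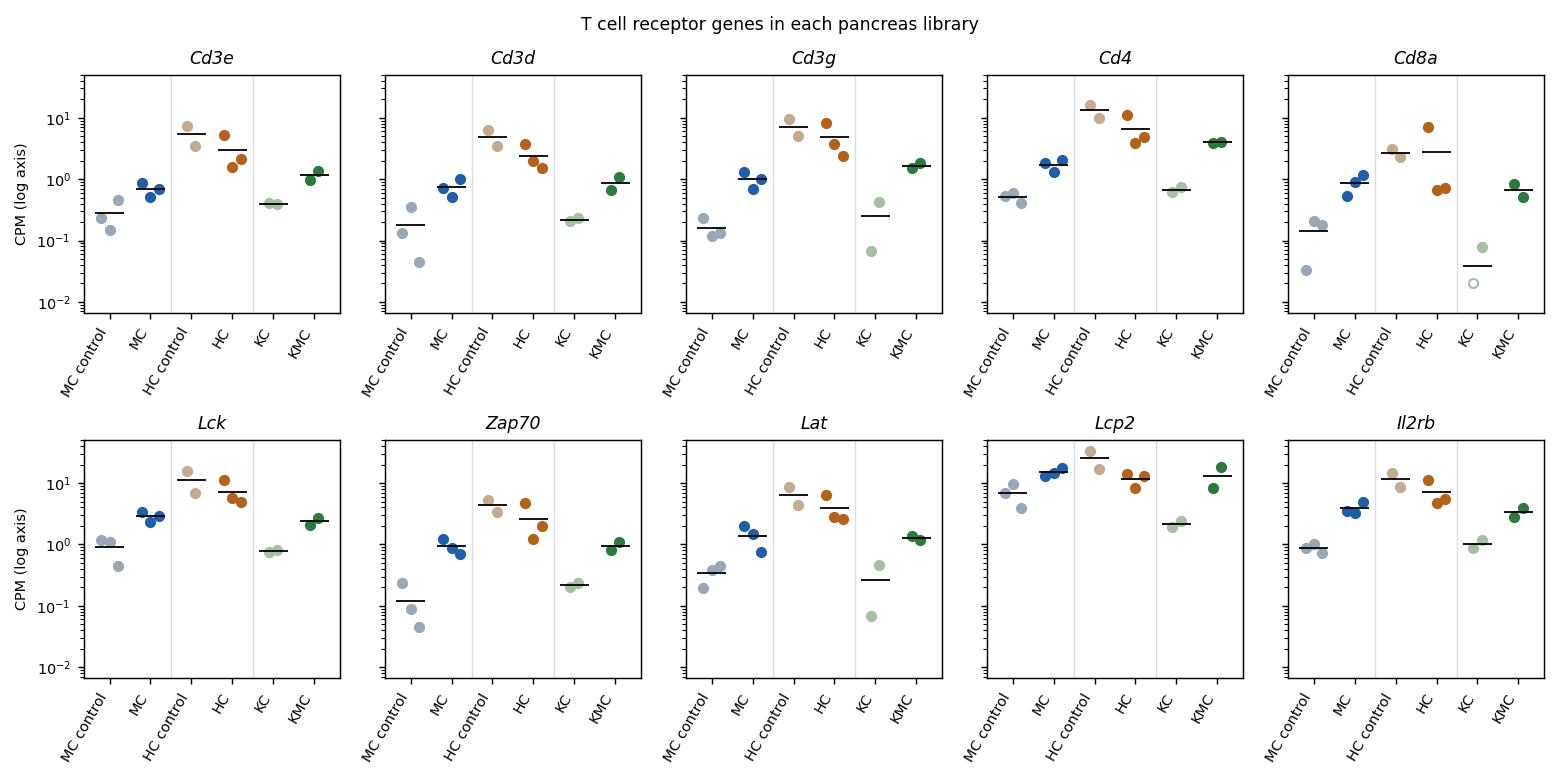
CPM of each of the 10 genes in each library (y axis, log scale), by group (x axis), where points are libraries, black bars are group means and the open point marks 0 counts. All MC points lie above all MC control points and all KMC points above all KC points, while the libraries labelled HC overlap their controls for every gene but Lcp2. CPM were scaled within each pair of groups, so levels of different pairs should not be compared.

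The libraries labelled HC against their controls ask what active HPK1 in acinar cells does after cerulein. Those controls are labelled wild type and not B control, so Bac-cre and the HPK1 transgene cannot be told apart. For 9 of the 10 genes the log2 fold change was below 0, from -0.58 for Cd3g to -1.1 for Lcp2, and Cd8a was at 0.05. The median was -0.72 beside -0.00112 over all 18407 genes tested. None of the 10 was called by edgeR, beside 0.565% of all genes. Only Lcp2 was lower at an unadjusted p under 0.05, and 1 of 10 is near the 7.47% of all genes that were. Lcp2 was also the only gene of the 10 whose groups did not overlap, beside 16.1% of all genes lower without overlap. DESeq2 called Lcp2 alone of the 10, beside 1.09% of all genes called lower.

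Lcp2 had 33.7 and 16.7 CPM in control libraries 1 and 2 and 14.1, 8.23 and 12.8 CPM in HC libraries 1 to 3. The controls differed by about as much as the groups did, and the log2 fold change of -1.1 had a standard error of 0.34 (edgeR adjusted p = 0.209). Cd4 had 16.4 and 10.1 CPM in controls and 11, 3.85 and 4.85 CPM in HC, at a log2 fold change of -1.01 (standard error 0.47, edgeR adjusted p = 0.361). Its only overlap was between HC 1 and control 2.

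Library HC 1 lay above HC 2 and HC 3 for all 10 genes. Cd3e had 7.46 and 3.43 CPM in controls and 5.32, 1.56 and 2.12 CPM in HC. Cd3d had 6.25 and 3.41 CPM against 3.75, 1.94 and 1.49 CPM, and Cd3g had 9.41 and 4.97 CPM against 8.30, 3.72 and 2.41 CPM. For each CD3 chain, HC 2 and HC 3 were below both controls and HC 1 was between them. Log2 fold changes were -0.85, -1.01 and -0.58 for Cd3e, Cd3d and Cd3g (standard errors 0.58, 0.46 and 0.54).

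Cd8a differed most between HC libraries, with 3.07 and 2.33 CPM in controls and 6.97, 0.667 and 0.729 CPM in HC. HC 1 exceeded both controls while HC 2 and HC 3 were below both, and the fitted log2 fold change of 0.05 had a standard error of 1.005. Cd8a per 100 counts of Cd4 was 63.3, 17.4 and 15.0 in HC 1 to 3 and 18.7 and 23.1 in controls. Other genes showed HC 1 in the same place and were chosen after their values were seen. Cd8b1, the partner chain of CD8, had 3.10, 0.381 and 0.476 CPM in HC 1 to 3, and Klrb1c, an NK cell receptor, had 7.12, 0.604 and 0.571 CPM.

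For the kinases, Lat and Il2rb, HC 1 lay between the controls and HC 2 and HC 3 below both. Lck had 16.0 and 6.78 CPM in controls and 11.1, 5.75 and 4.88 CPM in HC, and Zap70 had 5.34 and 3.38 CPM against 4.70, 1.21 and 2.03 CPM. Lat had 8.61 and 4.40 CPM in controls against 6.44, 2.80 and 2.60 CPM in HC. Il2rb had 14.7 and 8.63 CPM against 11.1, 4.77 and 5.45 CPM. Log2 fold changes of these 4 ran from -0.65 (Lck) to -0.72 (Lat and Zap70), with edgeR adjusted p of 0.465 to 0.595.

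The result turned on single libraries. Without HC 1, all 10 genes were lower at an unadjusted p under 0.05, and edgeR called Cd4 (log2 fold change -1.61, adjusted p = 0.0491, range over all alternatives 0.0491 to 0.769) and Cd8a (-1.94, adjusted p = 0.0407, range 0.0407 to 0.999) among 379 genes in all. The share of all genes past that unadjusted threshold was not counted in this or any other fit that left out a library. With a lone control, assumed to vary like the HC libraries, none of the 10 had an unadjusted p under 0.05 without control library 1, and 2 had without control library 2.

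KMC against KC asks what M46 does beside mutant Ras. All 10 genes were higher in both KMC libraries than in both KC libraries. Log2 fold changes ran from 1.54 for Cd3e to 3.73 for Cd8a, with a median of 2.10 beside 0.03 over all 15733 genes tested. None of the 10 was called by edgeR, beside 0.0191% of all genes, with adjusted p of 0.0796 (Lcp2 and Cd4) to 0.178 (Cd3e). At an unadjusted p under 0.05 all 10 were higher, beside 16.1% of all genes, and groups lay apart with KMC higher for 34.4% of all genes. DESeq2 called 4 of the 10 (Cd3g, Cd4, Lcp2 and Il2rb), beside 9.25% of all genes called higher.

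Few reads stood behind the KC values. Counts over the 10 genes ran from 0 (Cd8a) to 28 (Lcp2) in KC 1 and from 2 to 63 for the same genes in KC 2, against 27 to 1515 in KMC. Cd8a had 0 and 0.0774 CPM in KC 1 and KC 2 and 0.835 and 0.512 CPM in KMC 1 and KMC 2. Those are 2 counts in KC and 77 in KMC, a ratio of 12.5 with a 95% counting interval of 3.35 to 105, so the fitted fold change of Cd8a is not well fixed.

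Lcp2 and Cd4 had the lowest adjusted p. Lcp2 had 1.91 and 2.44 CPM in KC and 8.16 and 18.0 CPM in KMC, a log2 fold change of 2.58 (standard error 0.48). Cd4 had 0.613 and 0.735 CPM in KC and 3.86 and 4.07 CPM in KMC, a log2 fold change of 2.54 (standard error 0.49). For Cd4 the libraries of a group were close to each other, while KMC 2 held more than 2 times as much Lcp2 as KMC 1.

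Among the CD3 chains, Cd3e had 0.408 and 0.387 CPM in KC and 0.958 and 1.35 CPM in KMC, and Cd3d had 0.204 and 0.232 CPM against 0.663 and 1.1 CPM. Cd3g had 0.0681 and 0.426 CPM against 1.5 and 1.83 CPM. The log2 fold changes of 1.54, 1.99 and 2.61 had standard errors of 0.62, 0.70 and 0.78, so they did not differ from each other beyond their errors. Among the kinases and the adaptor, Lck had 0.749 and 0.813 CPM in KC and 2.06 and 2.68 CPM in KMC, and Zap70 had 0.204 and 0.232 CPM against 0.811 and 1.08 CPM. Lat had 0.0681 and 0.464 CPM against 1.35 and 1.18 CPM. Their log2 fold changes were 1.60, 2.10 and 2.11 (standard errors 0.53, 0.67 and 0.80). Il2rb, the cytokine receptor chain, had 0.885 and 1.16 CPM in KC and 2.85 and 3.96 CPM in KMC, a log2 fold change of 1.72 (standard error 0.50).

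Scaling set how many of these were called. With unscaled library sizes the median of all genes moved to 1.47 and that of the 10 genes to 3.53, a difference of the same order as under TMM, and all 10 were called among 4714 genes. With acinar genes left out of the library size, 6 were called among 1876. Without KMC 1, where the lone KMC library is assumed to vary like KC, Lcp2 and Cd4 were called among 2312 genes and 6 of the 10 were higher at an unadjusted p under 0.05, and without KMC 2 it was 4.

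**Figure D2:**
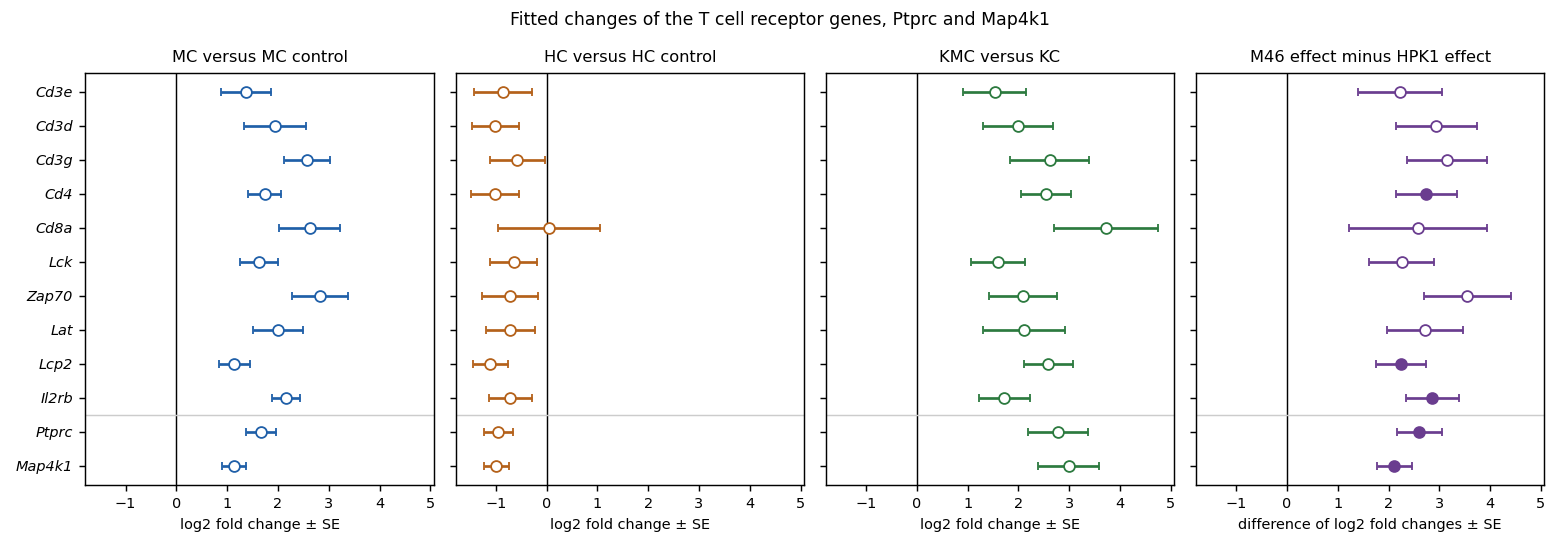
Log2 fold change with its standard error (x axis) of the 10 genes and of Ptprc and Map4k1 (y axis) in the 3 comparisons, and in the last panel the difference between the MC and HC effects. Filled points passed an adjusted p of 0.05 and a 2-fold change in edgeR, which in the last panel were Cd4, Lcp2, Il2rb, Ptprc and Map4k1.

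The M46 and HPK1 effects were then compared directly, as the log2 fold change of MC against its controls minus that of the libraries labelled HC against theirs, in a model over those 11 libraries. The experiments differed in age and in library kit as labelled. Each has its own controls, labelled B control for MC and wild type for HC. Map4k1 in CPM goes against the HC label. Per 100 counts of Ptprc, a leukocyte gene, it was 14.1 in HC and 14.6 in their controls, and 17.5 in MC and 25.7 in its controls. The direction of the HC effect, and with it the difference, holds only if the HC labels are right. The separate effects were 1.14 and -1.1 for Lcp2, 1.74 and -1.01 for Cd4, and 2.15 and -0.71 for Il2rb, so with the HC direction turned they would lie closer together. The difference was above 0 for all 10 genes, from 2.22 (Cd3e) to 3.55 (Zap70), with a median of 2.73 beside -0.03 over all 14884 genes. Il2rb (2.86, standard error 0.52, adjusted p = 0.0313), Cd4 (2.74, standard error 0.60, adjusted p = 0.0424) and Lcp2 (2.24, standard error 0.50, adjusted p = 0.0455) were called in edgeR, beside 1.77% of all genes called higher. The other 7 had adjusted p of 0.0573 (Zap70) to 0.306 (Cd8a), and 9 of 10 had an unadjusted p under 0.05 beside 12.3% of all genes. DESeq2 called 8 of the 10, all but Cd3e and Cd8a, beside 5.46% of all genes called higher. The calls depended on single libraries: none of the 10 was called without MC control 1 or 3, MC 2 or 3, HC 2 or 3, or HC control 1, 2 were called without MC 1 or HC control 2, and 6 without MC control 2 or HC 1.

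Ptprc, the leukocyte antigen CD45, moved with the 10 genes, with log2 fold changes of 1.66, -0.95 and 2.78 in MC, HC and KMC. Members were therefore also counted per 100 counts of Ptprc in each library, as a description without a test. In MC, the ratio of 9 genes overlapped between groups, and that of Lcp2 did not. Since Ptprc itself was higher in MC, 90.1% of all genes tested did not overlap on this ratio, so the 1 of 10 is not a result about Lcp2. Lcp2 per 100 Ptprc was 34.4, 36.1 and 33.65 in MC and 51.1, 49.3 and 46.5 in controls. The 3 CD3 genes summed averaged 5.61 per 100 Ptprc in MC (SD 1.70, n = 3) and 5.03 in its controls (SD 2.22, n = 3). In the HC experiment all 10 ratios overlapped, beside 67.5% of all genes that did not, with a mean CD3 sum of 20.2 in HC (SD 7.73, n = 3) and 18.1 in its controls (SD 2.55, n = 2).

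In KMC, 5 of the 10 ratios did not overlap, beside 90.2% of all genes tested. Those of Cd3e, Cd3d, Lck and Il2rb were lower than in both KC libraries and that of Cd8a was higher. Lck per 100 Ptprc was 6.18 and 4.57 in KMC and 23.9 and 8.08 in KC, and Il2rb was 8.54 and 6.75 in KMC and 28.3 and 11.5 in KC. The KC 1 ratio rests on 46 counts of Ptprc, and for Lck and Il2rb the KC libraries differed from each other by more than KC 2 differed from KMC. The CD3 sum was 8.32 ± 1.45 (SD, n = 2) per 100 Ptprc in KMC and 16.1 ± 8.03 (SD, n = 2) in KC.

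**Figure D3:**
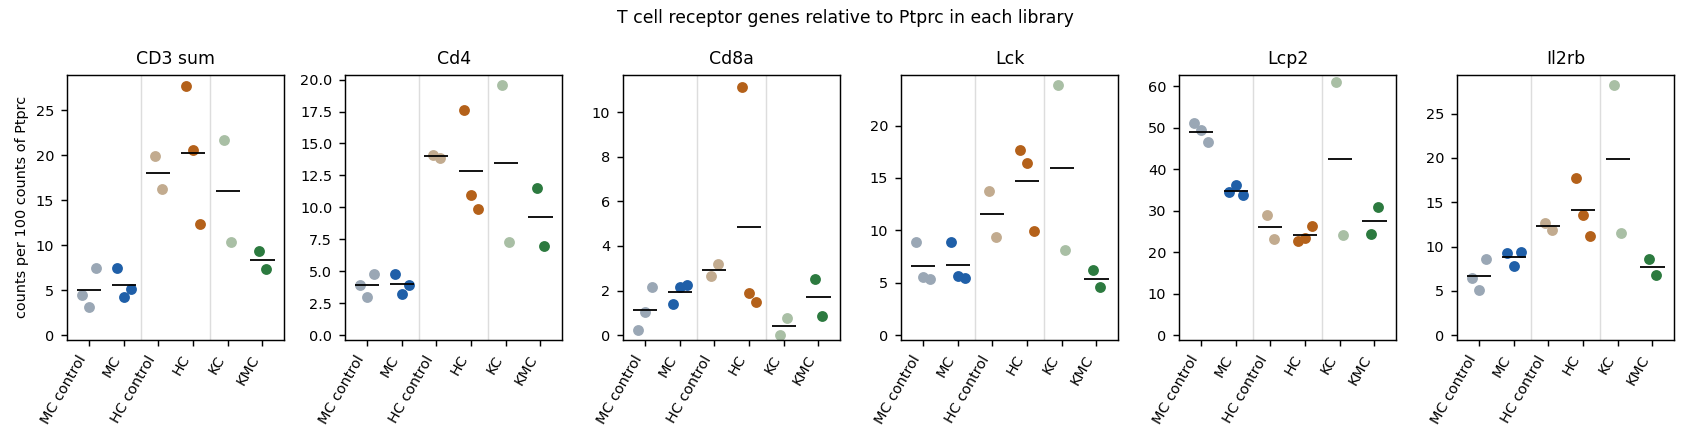
Counts of the summed CD3 genes, Cd4, Cd8a, Lck, Lcp2 and Il2rb per 100 counts of Ptprc in each library (y axis), by group (x axis), where points are libraries and black bars are group means. Lcp2 is lower in all 3 MC libraries than in all 3 controls, Cd8a stands out in HC 1, and KC 1 lies far above KC 2 for all but Cd8a.

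Per kilobase of exon, Lcp2 had the highest level of the 10 in each of the 6 groups, at 1.53 ± 0.657 CPM per kb (SD, n = 3) in MC controls and 3.41 ± 0.505 (SD, n = 3) in MC. It did not overlap the next gene in MC, MC control, KC and KMC, and overlapped Lck in both groups of the HC experiment. Lck came next except in KMC, where Cd4 did (0.984 ± 0.038 CPM per kb, SD, n = 2). Cd8a or Cd3e was lowest, at 0.0386 ± 0.0259 (Cd8a, SD, n = 3) in MC controls and 0.171 ± 0.0444 (Cd3e, SD, n = 3) in MC. In the HC experiment every gene overlapped the next in order, and in MC only Lcp2 and Il2rb did not overlap the gene after them. Levels per kb were not compared between experiments.

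The 10 genes followed each other across libraries. With each pair of groups centred on its own mean, the Pearson correlation of a gene's log2(CPM + 0.5) with the mean of the other 9 ran from 0.824 (Cd8a) to 0.972 (Cd4) over 15 libraries. Lcp2 correlated more with Ptprc (0.959) than with the other 9 (0.859), whereas Cd3e had 0.687 with Ptprc and 0.890 with the other 9. Genes outside the list with a high correlation to the mean of the 10 were Icos (0.983), a costimulatory receptor of activated T cells, Sh2d2a (0.975), a T cell adaptor, Ccl5 (0.975), a chemokine of activated T and NK cells, and Grap2 (0.960), the adaptor that links LAT to SLP-76. Differences between a group and its control remain in these values, so the correlations hold the group changes given above. The libraries share depth and scaling within a pair and these values are descriptions.

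Other genes of the pathway were taken from lists. The list counts below stand beside the shares of all genes at an unadjusted p under 0.05. Those were 9.2% higher and 5.46% lower in MC, 8.39% higher and 7.47% lower in HC, and 16.1% higher and 9.48% lower in KMC. The receptor chains and coreceptors (Cd247, Cd2, Cd5, Cd6, Cd8b1, Cd28 and Icos) were higher in MC for 7 of 7 genes tested at an unadjusted p under 0.05, with a median log2 fold change of 2.16 and none called. Cd247, the zeta chain of the complex, had 0.165, 0.179 and 0.135 CPM in controls and 1.15, 0.658 and 0.642 CPM in MC (log2 fold change 2.30, standard error 0.44). The receptor constant genes Trac, Trbc1, Trbc2 and Trdc were not analysed here for MC. In HC, 0 of 12 chains passed an unadjusted p of 0.05 in either direction (median -0.76), where Cd2, an adhesion receptor, had the lowest p (log2 fold change -0.95, standard error 0.41). In KMC, 6 of 10 were higher at that threshold (median 2.05), and Cd8b1 had 0 and 0.0774 CPM in KC and 0.713 and 0.703 CPM in KMC.

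Of the proximal kinases and adaptors, 6 of 14 were higher in MC at an unadjusted p under 0.05 (median 0.72), led by Sh2d2a (log2 fold change 2.74, standard error 0.42), while Fyn, a Src-family kinase made in many tissues, which was chosen after its values were seen, was at 19.0 ± 0.982 CPM in MC and 18.7 ± 2.98 CPM in controls (SD, n = 3 each). In HC, 1 of 16 was lower, near the share of all genes. It was Was, the actin regulator of blood cells (log2 fold change -0.76, standard error 0.19). In KMC, 7 of 15 were higher (median 1.06), led by Vav1, an exchange factor of blood cells, with 1.5 and 2.17 CPM in KC and 9.39 and 19.6 CPM in KMC. None was called in the 3 comparisons. Fyn was at 18.5 ± 3.45 CPM in KMC and 17.6 ± 0.249 CPM in KC (SD, n = 2 each).

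The distal signalling list, which holds the widely used kinases and NFAT factors, had 3 of 12 genes higher in MC, 1 higher and 1 lower in HC, and 5 of 12 higher in KMC at an unadjusted p under 0.05, with medians of 0.03, -0.09 and 0.50. The HC counts were near the shares of all genes, so they are not a result about this list. Rasgrp1, which activates Ras downstream of the receptor, was higher in MC (4.22 ± 1.09 against 0.895 ± 0.428 CPM, SD, n = 3 each; log2 fold change 2.20) and in KMC (8.29 ± 4.70 against 1.27 ± 0.832 CPM, SD, n = 2 each; log2 fold change 2.66) at that threshold. In HC Rasgrp1 was lower at that threshold (log2 fold change -0.86) and the gene with the lowest p was Mapk3, the kinase ERK1, at 350.3 CPM (SD 26.6, n = 3), compared with 235 CPM (SD 21.4, n = 2). None of the list was called.

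Negative regulators, Map4k1 included, gave 6 of 13 higher in MC, 1 higher and 3 lower in HC, and 7 of 13 higher in KMC at an unadjusted p under 0.05. Medians were 0.46, -0.29 and 1.39 and none was called. In MC the lowest p was that of Ptpn22, a phosphatase that acts on LCK (3.89 ± 0.782 against 1.21 ± 0.503 CPM, SD, n = 3 each). In HC it was Dgka, a kinase that removes diacylglycerol, which was higher (50.3 CPM, SD 4.81, n = 3, compared with 33.0 CPM, SD 4.05, n = 2). In KMC Map4k1 itself had the lowest p, at 8.65 ± 3.86 against 1.05 ± 0.710 CPM (SD, n = 2 each; log2 fold change 2.99, standard error 0.60). Map4k1 per 100 Ptprc was 18.6 ± 1.18 in KMC and 16.4 ± 1.42 in KC (SD, n = 2 each). That ratio overlapped in MC, at 17.5 ± 3.775 against 25.7 ± 4.17 in controls (SD, n = 3 each). It also overlapped in HC, at 14.1 (SD 2.26, n = 3), compared with 14.6 (SD 1.86, n = 2) in controls. Whether transgene reads enter the Map4k1 counts was not tested.

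Of the other IL-2 and IL-15 receptor genes, Il2rg, the common gamma chain, was at 5.54 ± 1.06 CPM in MC and 2.02 ± 1.15 CPM in controls (SD, n = 3 each), and at 2.58 and 7.22 CPM in KMC and 1.02 and 1.01 CPM in KC. The list had 4 of 9 genes higher at an unadjusted p under 0.05 in MC and 4 of 9 higher and 1 lower, Cish, in KMC, and 2 of 9 lower in HC, where Jak3, the kinase bound to that chain, had the lowest p (31.6 CPM, SD 2.49, n = 3, compared with 44.1 CPM, SD 10.8, n = 2). None was called.

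Lists of T cell states were counted in the same way. Effector genes were higher in MC for 7 of 7 tested at an unadjusted p under 0.05 (median 2.47), with Ccl5 at 0.760, 1.34 and 0.899 CPM in controls and 4.67, 4.42 and 6.00 CPM in MC. Gzma, which encodes a granzyme of cytotoxic cells, was at 1.51 ± 0.652 CPM in MC and 0.266 ± 0.0333 CPM in controls (SD, n = 3 each). In HC 1 of 8 effector genes was lower, near the share of all genes, and in KMC 2 of 6 were higher. Naive T cell genes gave 4 higher and 1 lower of 7 in MC, 5 of 8 lower in HC and 6 of 8 higher in KMC. Il7r, the IL-7 receptor of resting T cells, was at 9.25 ± 1.98 CPM (SD, n = 3) in HC and 17.4 ± 1.65 CPM (SD, n = 2) in controls. Ccr7, a homing receptor for lymph nodes, was at 2.01 ± 0.755 CPM (SD, n = 3) in HC and 6.27 ± 3.55 CPM (SD, n = 2) in controls.

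Regulatory T cell genes were higher for 6 of 7 in MC and 4 of 7 in KMC at an unadjusted p under 0.05, while in HC 2 of 7 were lower and 1 was higher. The lower ones were Foxp3, the lineage factor (2.22 CPM, SD 0.822, n = 3, compared with 5.97 CPM, SD 1.82, n = 2), and Ctla4, an inhibitory receptor (1.34 ± 0.365 against 3.28 ± 0.589 CPM, same n). In MC Foxp3 was at 0.505 ± 0.0767 CPM and 0.161 ± 0.174 CPM in controls (SD, n = 3 each). The summed regulatory list was higher in every HC library (219 to 249.95 CPM) than in both controls (161 to 201 CPM), opposite to Foxp3 and Ctla4. Foxp3 and Ctla4 made up little of that sum, so it does not describe regulatory T cells. In HC, 4 of the 7 genes had a log2 fold change below 0, and the highest was that of Capg, 0.47. None of the T cell state genes was called in the 3 comparisons.

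Markers of other blood cells moved as well, and their part in the members' values was not tested. Pan-leukocyte genes were higher at an unadjusted p under 0.05 for 7 of 9 in MC (summed 351 to 514 CPM against 114 to 316 CPM) and 9 of 9 in KMC (269 to 611 CPM against 64.5 to 86.0 CPM), and lower for 6 of 9 in HC (573 to 693 CPM against 734 to 1165 CPM). Macrophage genes were higher for 6 of 10 in MC (summed 611 to 948 CPM against 274 to 584 CPM) and 11 of 11 in KMC (566 to 1445 CPM against 165 to 175 CPM), and lower for 8 of 11 in HC (959.97 to 1339 CPM against 1521 to 2299.9 CPM). Their median log2 fold changes were 0.93, 2.54 and -0.75. Adgre1, the macrophage surface marker F4/80, was at 69.0 ± 19.9 CPM in MC and 40.3 ± 28.1 CPM in controls (SD, n = 3 each), with overlap. For macrophage genes the MC median was below that of the 10 T cell receptor genes, and for KMC it was above.

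In MC 0 of 7 neutrophil genes passed an unadjusted p of 0.05 (median 0.19), with S100a8 at 4.46 ± 2.15 CPM against 3.87 ± 3.91 CPM (SD, n = 3 each). In KMC 6 of 7 were higher (median 3.06), and in HC 5 of 7 were lower (median -0.77), with S100a8 at 10.3 CPM (SD 1.81, n = 3), compared with 20.4 CPM (SD 6.77, n = 2). Dendritic cell genes were higher for 3 of 8 in MC and 7 of 8 in KMC, and 0 of 8 passed in HC, where the lowest p was that of Itgax (log2 fold change -1.08, standard error 0.45). NK cell genes, which share Il2rb with T cells, were higher for 3 of 4 in MC and 3 of 7 in KMC, and 0 of 3 passed in HC. Ncr1, which marks NK cells, had 0.0992, 0.0595 and 0 CPM in MC controls and 0.473, 0.846 and 1.14 CPM in MC.

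B cell genes had the highest median of these lists in MC, 3.72, with 7 of 7 tested higher at an unadjusted p under 0.05 and 6 of 7 without overlap. Of all genes, 9.2% were higher at that threshold and 10.9% were higher without overlap. Library MC 1 had the most of the B cell genes. Summed B cell genes were at 103, 30.9 and 17.6 CPM in MC 1 to 3 and 4.31 to 11.4 CPM in controls. In the lymphoid organ list, Cxcl13, a chemokine of B cell follicles, had the same order, at 109, 28.2 and 2.81 CPM. The sum of that list, 112, 30.6 and 6.32 CPM, took its order from Cxcl13. The sum of the 10 T cell receptor genes did not have this order, at 28.6, 26.6 and 32.7 CPM in MC 1 to 3. Lcp2 gave 13.2, 14.8 and 17.6 CPM of it. Taken singly, Zap70 and Lat had the order of the B cell genes, and Cd8a and Lcp2 had the reverse order. Cd3e, Cd3g and Lck were highest in MC 1, and Cd3d, Cd4 and Il2rb in MC 3. In HC the B cell gene Cd79a was lower and called (6.82 CPM, SD 0.385, n = 3, compared with 16.9 CPM, SD 4.17, n = 2; log2 fold change -1.31, edgeR adjusted p = 0.0499). In KMC 3 of 10 B cell genes were higher at an unadjusted p under 0.05.

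**Figure D4:**
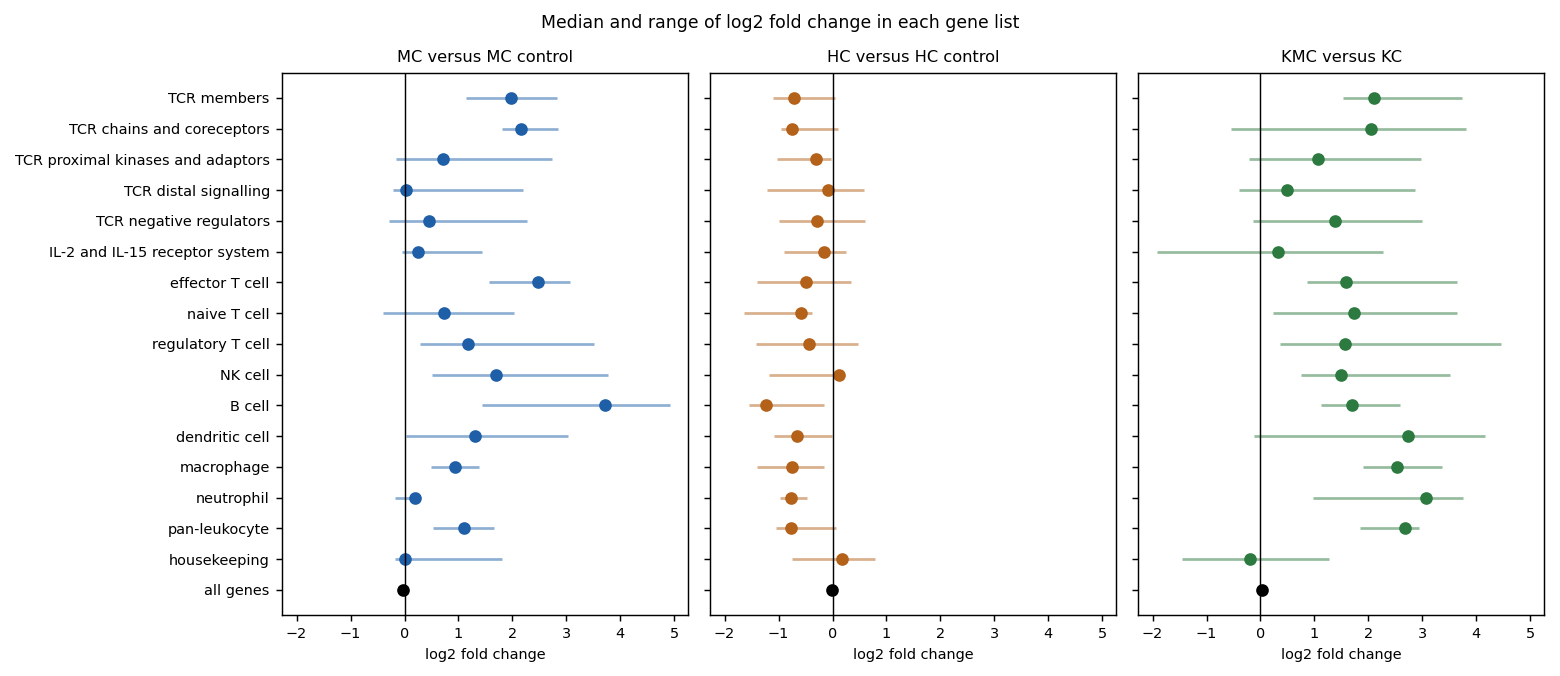
Median (point) and range (line) of log2 fold change over the tested genes of each list (y axis) in MC, HC and KMC (x axis, log2 fold change), with the median of all genes in black. Medians of the 10 genes were 1.97, -0.72 and 2.10, and the B cell list had the highest median in MC, at 3.72.

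In the direct comparison of the M46 and HPK1 effects, edgeR called 2 of 7 other chains (Cd247 and Cd6), 2 of 16 proximal genes (Grap2 and Themis), 1 of 12 distal genes (Rasgrp1) and 2 of 13 negative regulators (Map4k1 and Ptpn22), each with a positive difference. Over all genes tested, edgeR called 1.77% higher, which stands beside each count of called genes here. Of the T cell state lists it called Gzmb of 8 effector genes, Ccr7, Il7r and Klf2 of 8 naive genes, and Ctla4 of 7 regulatory genes. Outside T cells it called Ptprc and Cd53 of 9 pan-leukocyte genes and Csf1r, Mrc1, C1qb and C1qc of 10 macrophage genes. It also called Cd22 of 10 B cell genes and B2m of 15 genes listed as housekeeping, where B2m moved in the directions of Ptprc (1.80 in MC and -0.76 in HC). It called none of 7 neutrophil, 5 mast cell or 5 platelet genes, of which 0 had an unadjusted p under 0.05. It also called none of 8 dendritic cell, 7 NK cell and 9 IL-2 and IL-15 receptor genes, of which 4 in each list were higher at that threshold. Of all genes, 12.3% were higher and 8.43% lower at that threshold. In the NK cell list 1 gene, Klri2, was lower (-5.67).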

How the data were processed

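RNA-Seq was made from pooled pancreas RNA of 15 libraries. The authors deposited counts of reads per gene, unnormalized, in 3 tables, with 29766575 to 38745907 counts a library. The submitters' processing notes name bcl2fastq 2.17.14, STAR 2.6.1a, HTSeq 0.6.1 and mm10, while the study's methods name STAR for both alignment and gene counting, so the counter is not settled. A deposited DESeq2 table of fold changes and p-values for MC was not used. No column of sample values was left out (0). Names were matched for 49326 and 15164 identifiers, gene models are GENCODE on GRCm38, and promoters are RefSeq on GRCm38.p6.

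Each group was compared with its own control with edgeR 4.0.16 in R 4.3.3 (filterByExpr, TMM, quasi-likelihood F-test, Benjamini-Hochberg over all genes tested). CPM are TMM-scaled within a pair of groups. Genes were called at an adjusted p no higher than 0.05 with a 2-fold change in either direction. DESeq2 1.42.0, other scaling and filters, a replicate block, joint fits and leaving out each library were alternatives, and a newer edgeR fit was chosen after seeing the data. Tests were checked on simulated data. Intervals cover counting error only. Replicate pairs differed by more than sampling noise, at a chi-square of 39.5 to 463 per gene.

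The 10 genes and the lists were chosen with earlier results of these data known. Genes named beyond the 10 were Map4k1 and Ptprc, the called genes of each list or else the gene with the smallest p, the defining gene of each cell type list, and the 5 genes with the highest correlation, and some genes that this rule names are not reported here.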

Additional observations from a re-analysis of the deposited data

Results flagged for a closer look

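The difference between the M46 and HPK1 effects was tested directly in edgeR (adjusted p of at most 0.05). On the log2 scale it was 2.74 for Cd4, 2.24 for Lcp2 and 2.86 for Il2rb, with all 3 positive in MC and negative in the libraries labelled HC. Other genes named above that passed the same test were Cd247 (3.03), Cd6 (2.82), Grap2 (3.10), Themis (4.37), Rasgrp1 (3.05), Map4k1 (2.11), Ptpn22 (2.18), Gzmb (2.80), Ccr7 (3.66), Il7r (1.78), Klf2 (1.25) and Ctla4 (4.82). Among other blood cell genes they were Cd22 (3.83), Csf1r (1.79), Mrc1 (1.80), C1qb (1.88), C1qc (1.90), Ptprc (2.60) and Cd53 (2.24), and in the housekeeping list B2m (2.55). The experiments differ in age, library kit and control label (B control or wild type), which cannot be told apart from the transgene here. Map4k1 in CPM goes against the HC label.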

How the results depend on the processing

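Of the 10 genes, the number called was 0 in MC, 0 in HC, 0 in KMC and 3 for the difference of effects. With DESeq2 it was 8, 1, 4 and 8 (among 453, 467, 2159 and 1010 genes, against 0, 104, 3 and 325 in edgeR). With library size alone it was 10 in KMC (4714 genes) and 1 for the difference (98 genes), and without acinar genes in the library size 6 (1876) and 1 (165), with 51 genes in HC. With a replicate block it was 1 in HC (339 genes), 4 in KMC (2464) and 0 for the difference (0), and a joint fit of HC and KMC gave 4 in KMC (3230) and 1 gene in all in HC. Without a filter 395 genes were called in HC and 9 in KMC. Deviations of same-numbered libraries correlated at 0.0762, 0.313 and -0.347 in MC, 0.214 and 0.202 in HC, and 0.101 and 0.101 in KMC. In a group of 2 libraries the deviations mirror each other, so these values cannot settle whether libraries were paired. The samples are known to share only a number, and the block is not taken as a paired analysis. Leaving out each library gave 0 to 5 in MC (up to 718 genes), 0 to 2 in HC (0 to 379), 0 to 2 in KMC (0 to 2312) and 0 to 6 for the difference (0 to 1584). The number with an unadjusted p under 0.05 was 8 to 10 in MC, 0 to 10 in HC, 4 to 8 in KMC and 8 to 10 for the difference without each library. In HC it was 1, but 3 with DESeq2, 3 with no filter, 5 with the replicate block and 2 in the joint fit. The share of all genes past that unadjusted threshold was not counted in these alternatives or without each library. Such counts can therefore not be told apart from a shift of all genes. Cd8a in HC had a log2 fold change of -0.16 with the replicate block, -0.13 without HC control 2 and a range of -1.94 (without HC 1) to 0.52 (without HC 2) when libraries were left out, and Lck in HC ranged from -1.14 (without HC control 2) to 0.093 (without HC control 1). No other log2 fold change of the 10 genes changed sign under the alternatives run, and the cause was not tested. Depth limits genes with few counts, such as Zap70 (7, 3 and 1 counts in MC controls) and Cd8a (0 and 2 counts in KC).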

Other observations

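Mast cell, platelet, lymphoid organ, acinar and housekeeping genes were followed as well, and none was called by edgeR in the 3 comparisons. In HC, Mcpt4, a mast cell protease, was at 55.0, 22.4 and 23.2 CPM in HC 1 to 3 and 6.34 and 10.01 CPM in controls, where it was the 1 of 6 mast cell genes that was higher at an unadjusted p under 0.05. Platelet genes were higher for 3 of 5 there, led by Ppbp, a platelet chemokine (log2 fold change 2.76, standard error 0.63). In MC, 1 mast cell gene of 3 was higher and 1 lower, and 0 of 2 platelet genes passed, and in KMC 0 of 4 passed in each list. Lymphoid organ genes gave 1 of 3 higher in MC (Cxcl13) and 0 of 4 in both other comparisons. Acinar genes gave 2 higher and 2 lower of 31 in MC, 1 higher of 32 in HC and 6 lower of 32 in KMC. Of all genes, 9.2% were higher and 5.46% lower in MC, 8.39% higher and 7.47% lower in HC, and 16.1% higher and 9.48% lower in KMC at that threshold, and the acinar counts in MC are near those shares. The median log2 fold change of the acinar genes was -0.55 in MC, -0.12 in HC and -1.97 in KMC, beside -0.02, -0.00112 and 0.03 over all genes. Housekeeping genes gave 1 of 15 higher in MC, 1 higher and 2 lower in HC, and 1 lower in KMC.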
